A study of Mus musculus with 9 samples.

Results

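A set of 94 of the 45281 array probes was bright in the epididymal fat of mice on a high fat diet (HFD) and dimmer in every mouse on a normal diet (ND) and in every mouse on the high fat diet plus mannose (HFDM). Total RNA of the fat pad that lies beside the epididymis was hybridised to Illumina bead arrays, 1 array for each of 9 C57BL6/J mice aged 16 weeks, 3 per diet. From weaning, ND mice had the normal diet, HFD mice the high fat diet, and HFDM mice the high fat diet with mannose at 2% of the drinking water. Strain, age and tissue were common to all 9 mice, and mannose was given only together with the high fat diet in the samples used here. Mannose is a simple sugar and one of the building blocks of the glycans of proteins.

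The members were chosen on measured values. Each deposited intensity was floored at 0, raised by 16 and taken to log2, with no normalization between arrays. A probe was a member where its detection p-value was under 0.01 on all 3 HFD arrays and its lowest HFD value lay at least 0.7 above its highest value on the 6 ND and HFDM arrays. Probes with all 3 HFDM values above all 3 ND values were dropped, which removed 21 of the 115 probes that passed the other conditions. The distance between the lowest HFD value and the highest other value, called the gap here, ranged from 0.70 to 3.59 with a median of 1.04. It was at least 1 in 54 members, at least 2 in 12 and at least 3 in 4. The members just inside the threshold were a probe of Capg at 0.717, Lcp1 at 0.716 and an unnamed probe at 0.70, and the probes just outside it were Kcnj14 at 0.697, Palld at 0.692 and an unnamed probe at 0.678. Since the rule used these arrays, every difference of a member between HFD and the other diets is given below as a description and not as a test.

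Of the 94 members, 87 carried 1 gene symbol and stood for 75 genes, and 7 were unnamed. Gpnmb had 4 member probes, Rgs1 had 3, and Chil3, Ccl7, Ptx3, Timp1, Adam8, Lat2 and Capg had 2 each. Several of the genes, among them Trem2, Gpnmb and Mmp12, are known from macrophages. In obese fat of mice, macrophages gather around dying fat cells in rings called crown-like structures, take up the released lipid and turn on genes for lysosomes, lipid sensing and matrix breakdown. Chemokines such as the products of Ccl2 and Ccl7 draw monocytes from the blood into the tissue. Fat cells of an expanding pad also change their own secreted proteins and the matrix around them.

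Between 18390 and 20903 probes were detected on an array (p-value under 0.05), and arrays of the same diet correlated between 0.886 and 0.982 across probes. The tissue label fitted its markers, since Adipoq and Lep, which encode the fat cell hormones adiponectin and leptin, had mean normalized log2 intensities of 15.38 to 15.56 and 15.82 to 15.95 in the 3 diets. Markers of the epididymis itself summed to 5119 to 21719 intensity units on the ND arrays, 7391 to 8325 on the HFD arrays and 5239 to 6993 on the HFDM arrays. The HFD sum was carried by Npc2, a cholesterol-binding protein of lysosomes and epididymal fluid, with a mean log2 intensity of 12.56 in HFD, and the median HFD versus ND difference of the 12 genes was -1.30, with 2 genes that fell and 0 that rose. These were Wfdc15b, by a difference of -2.79, and the estrogen sulfotransferase gene Sult1e1, by -1.72 (limma adjusted p = 0.0284 and 0.0295), and the part of this tissue in the members' values was not tested. Wfdc15b lost its call without a detection filter and on omission of ND replicate 2, any 1 HFD array or HFDM replicate 3 (adjusted p 0.0514 to 0.114). Sult1e1 lost its call on omission of ND replicate 2, any 1 HFD array or HFDM replicate 3 (adjusted p 0.0535 to 0.127). HFD replicate 3 stood apart before normalization, since only 2.71% of the 13993 probes detected on all HFD arrays were brightest there among the HFD arrays. It held the lowest HFD value in 68 of the 94 members and therefore set their gap. Without that array the same rule chose 274 probes, all 94 members among them. Slide and scan day were not used here, so their part in the values was not tested.

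All values from here on are log2 intensities after limma's neqc, which corrects for background and equalises the arrays. On this scale all 94 members read higher on each HFD array than on each of the other 6, against 7.5% of the 20772 probes kept for the fits. The median member read 6.78, 6.35 and 6.60 on ND replicates 1, 2 and 3, 8.62, 9.33 and 8.78 on the HFD replicates, and 6.47, 6.84 and 6.58 on the HFDM replicates. The rule itself had set HFD above the other 6 arrays and had left out the 21 probes with every HFDM value above every ND value, so this order is no finding. HFD exceeded ND by 1.34 to 5.27 (median 2.19) and HFDM by 1.22 to 5.13 (median 2.07), where the median over all kept probes was -0.01 and 0.03. A probe whose detection p-value never fell under 0.05 in a diet counts as dim in that diet, and its fold is given as a minimum against the higher of its own signal and the lowest detected signal of each array. This applied to 12 members in ND and 18 in HFDM, and with these at their bounds the medians were 2.10 and 1.99. A further 26 members in ND and 13 in HFDM were dim on 1 or 2 of the 3 arrays, and their folds use the measured values. At least 4-fold separated HFD from ND in 52 members and from HFDM in 47, and at least 8-fold in 15 and 10. Whole fat pads were measured, so fewer cells of a type and less RNA per cell cannot be told apart.

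Mice on HFDM were close to ND mice on these probes. The HFDM mean differed from the ND mean by -0.52 to 1.16, with a median of 0.09, and lay within 0.5 of it in 81 members and within 1 in 93. Of all kept probes 96.7% lay within 1, so such closeness was not particular to the members, and the rule itself had kept both diets below HFD. The rule had also dropped the 21 probes with the HFDM arrays above the ND arrays, whose HFDM means exceeded the ND means by 0.14 to 2.34 (median 0.55), and with these included the median of 0.09 became 0.20. HFDM was above ND in 58 members, or 61.7%, where 45.3% of all kept probes were. Ct55, a gene known as a cancer/testis antigen, was the member beyond 1, with 5.17, 5.63 and 5.27 on ND, 8.95, 9.69 and 8.74 on HFD and 7.09, 5.72 and 6.74 on HFDM. Its HFDM values lay above the ND values on all 3 arrays after normalization, and its HFD values lay above both. In limma's fit to all 9 arrays, which tests each probe with a spread shared across probes and adjusts over 20772 probes by the Benjamini-Hochberg method, 0 members and 0 of all probes (0%) passed an adjusted p of 0.05 between HFDM and ND. Without adjustment 800 probes had a p under 0.05, and 0.953 was the smallest adjusted p.

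For the contrasts that the rule used, 88 of the 94 members passed limma's threshold in HFD versus ND, where 1.41% of all kept probes were higher and 0.39% lower in HFD. In HFDM versus HFD 67 members passed, where 0.732% were lower and 0.053% higher in HFDM. Nothing is read from these counts, because the members were picked for both differences. The counts also depended on single arrays. In HFD versus ND they were 40 and 57 when ND replicate 2 or 3 was left out, and 44, 22 and 37 when HFD replicate 1, 2 or 3 was. In HFDM versus HFD the omission of HFD replicate 1, 2 or 3 left 22, 14 and 12, and that of HFDM replicate 1, 2 or 3 left 9, 31 and 11.

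The list of lipid-handling macrophage genes held 8 members among its 35 genes with a kept probe (22.9%), where 75 of all 11649 genes with a kept probe were members (0.644%). The list was drawn up with earlier results of these data known, so this share is a description. Trem2, a lipid-sensing receptor of macrophages, read 9.12, 7.39 and 8.34 on the ND arrays, 10.86, 11.53 and 11.31 on the HFD arrays and 8.23, 8.79 and 8.42 on the HFDM arrays. Every HFD mouse was above every other mouse, by 7.71-fold over the ND mean and 6.72-fold over the HFDM mean, and ND replicate 1 was the closest of the others. Gpnmb, a transmembrane glycoprotein of lysosome-rich macrophages, had 4 member probes, which share their gene and so are not independent. Its probe with the largest gap was near background outside HFD, with 4.89, 5.50 and 5.18 on ND, 8.67, 9.43 and 8.59 on HFD and 5.14, 5.41 and 5.13 on HFDM. Another Gpnmb probe was well above background in all diets, with 10.62, 8.81 and 8.79 on ND, 12.98, 13.75 and 13.36 on HFD and 9.59, 10.17 and 10.12 on HFDM, which is 15.5-fold over ND and 10.6-fold over HFDM. The ND and HFDM arrays overlapped on both probes, and the HFD arrays stood above them. The remaining Gpnmb member probes had smaller folds, at least 3.56-fold and at least 3.05-fold over ND. Over HFDM these were 4.13-fold and at least 3.01-fold.

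Rgs1, a brake on G protein signalling downstream of chemokine receptors, had the largest gap of all members. It read 5.67, 5.88 and 5.08 on ND, 9.50, 10.34 and 10.21 on HFD and 5.48, 5.72 and 5.30 on HFDM, which is 22.2-fold over ND on the measured values and at least 20.2-fold over HFDM. The probe was detected on 1 of the ND arrays and on 0 of the HFDM arrays, so it was near background in both diets. With the other ND arrays at their lowest detected signal the ND fold was at least 18.6. The other Rgs1 probes were at least 5.44-fold and at least 5.74-fold above ND. Mmp12, the elastase of macrophages, read 7.69, 5.25 and 5.96 on ND, 10.02, 9.85 and 10.37 on HFD and 5.78, 6.71 and 7.21 on HFDM, or 13.7-fold and 11.4-fold. ND replicate 1 was the highest array outside HFD, and the lowest HFD array still exceeded it. Slc37a2, a sugar-phosphate transporter abundant in macrophages, read 6.86, 6.37 and 6.94 on ND, 8.77, 9.84 and 9.23 on HFD and 6.42, 6.75 and 6.59 on HFDM, or 5.88-fold and 6.47-fold. Il7r, a chain of the interleukin-7 receptor, was 4.61-fold over ND and 5.85-fold over HFDM. The remaining members of the list were Clec4d, a lectin receptor of myeloid cells, at 4.86-fold and 3.59-fold, and the actin-capping gene Capg, whose probes were 2.71-fold and 2.99-fold over ND and 2.56-fold and 2.42-fold over HFDM.

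Start-site windows from RefSeq (GRCm38.p6), 250 bases before to 50 bases after a gene's start, were available for 58 of the member genes, in 79 windows. Letters of known motifs were searched on both strands, and a match is a description of the letters only. TGANTCA, a loose form of the AP-1 motif that allows any middle base, was in 11 of the 79 windows, 13.9%, against 7.81% of all 32851 windows. TATAAA, the TATA box, was in 18 windows, 22.8%, against 13.6% of all. GAGGAA, the core of PU.1 and other ETS factors, was in 30.4% against 28.3%, a loose form of the NF-kB motif, G-rich at one end and C-rich at the other, in 45.6% against 50.8%, and CACGTG, an E-box, in 5.06% against 7.15%. The PPAR-type direct repeat, with 1 free base between its parts, was in 0 of the 79 windows and in 0.0396% of all. None of these motifs contains another, though the free bases of the NF-kB form can hold letters of the rest, and no test was made of the shares. Windows with TGANTCA belonged to Gpnmb, Mmp12, Cyp2c70, Slc37a2, Trem2, Il1rn, Fgf13, Bcl2a1b, Mmp3, Adssl1 and Cd84. AP-1 is a dimer of Fos, Jun and ATF proteins. Fos and Atf3 were members through the same rule, and any link between them and these windows was not tested. The 5 such windows of the genes with the largest gap are printed because 4 of them belong to the lipid-handling macrophage list, a choice made after the matches were seen. Each runs 5′ to 3′ along its gene with the TGANTCA match in capitals and the gene's start at base 251: Gpnmb at chr6:49036268-49036567 on the plus strand, Mmp12 at chr9:7347124-7347423 plus, Cyp2c70 at chr19:40187237-40187536 minus, Slc37a2 at chr9:37255689-37255988 minus and Trem2 at chr17:48346151-48346450 plus. The match lies at bases 259 to 265 in Gpnmb, 207 to 213 in Mmp12, 268 to 274 in Cyp2c70, 144 to 150 in Slc37a2 and 242 to 248 in Trem2. Its middle base is A in Trem2, where the strict AP-1 motif has C or G.
Gpnmb: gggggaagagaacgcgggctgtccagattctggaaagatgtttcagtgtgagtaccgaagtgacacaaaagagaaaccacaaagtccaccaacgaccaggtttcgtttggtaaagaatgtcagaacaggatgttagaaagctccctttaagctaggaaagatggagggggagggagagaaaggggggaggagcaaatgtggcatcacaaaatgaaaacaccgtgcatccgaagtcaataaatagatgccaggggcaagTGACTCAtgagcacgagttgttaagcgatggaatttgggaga
Mmp12: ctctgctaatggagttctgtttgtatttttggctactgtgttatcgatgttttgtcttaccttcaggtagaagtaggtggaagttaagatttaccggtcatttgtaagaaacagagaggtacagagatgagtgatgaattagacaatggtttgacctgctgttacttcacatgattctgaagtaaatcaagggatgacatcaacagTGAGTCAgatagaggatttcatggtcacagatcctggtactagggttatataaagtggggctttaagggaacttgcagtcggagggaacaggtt
Cyp2c70: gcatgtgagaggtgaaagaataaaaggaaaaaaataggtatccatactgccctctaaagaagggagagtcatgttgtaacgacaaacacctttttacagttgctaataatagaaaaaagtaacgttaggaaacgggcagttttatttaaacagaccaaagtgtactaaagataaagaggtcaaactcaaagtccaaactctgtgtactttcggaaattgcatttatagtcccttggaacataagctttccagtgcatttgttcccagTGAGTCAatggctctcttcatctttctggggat
Slc37a2: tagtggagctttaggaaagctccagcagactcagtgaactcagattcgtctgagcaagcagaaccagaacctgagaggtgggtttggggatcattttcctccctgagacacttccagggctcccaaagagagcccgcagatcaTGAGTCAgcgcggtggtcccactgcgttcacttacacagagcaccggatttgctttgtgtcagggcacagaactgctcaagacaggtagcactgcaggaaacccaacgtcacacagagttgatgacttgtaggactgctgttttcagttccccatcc
Trem2: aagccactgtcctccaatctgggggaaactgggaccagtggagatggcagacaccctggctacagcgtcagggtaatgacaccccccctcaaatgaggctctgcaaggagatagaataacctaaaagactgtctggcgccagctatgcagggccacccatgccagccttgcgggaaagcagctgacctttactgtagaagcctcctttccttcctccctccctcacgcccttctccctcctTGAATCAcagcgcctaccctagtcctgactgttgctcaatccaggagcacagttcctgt

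For called genes outside the set, other scalings, filters and fits and the omission of each array were tried, and those that ended a call are named with the range of its adjusted p-values. A fit with the replicate number as a block was not among these, so no call is said to have outlasted it. The count of called genes of every list is to be set beside the share over all kept probes. In HFD versus ND 1.41% were higher and 0.39% lower in HFD, and in HFDM versus HFD 0.732% were lower and 0.053% higher in HFDM. Among the 27 genes of the lipid-handling macrophage list that were not members, 5 rose in HFD versus ND, 0 fell, and the median difference was 0.73, against -0.01 over all kept probes. In HFDM versus HFD 4 of them fell and 0 rose, with a median of -0.90 against -0.03. Nceh1, which releases cholesterol from its stored esters, rose from 9.82 ± 0.26 in ND to 11.34 ± 0.33 in HFD and was 9.58 ± 0.20 on HFDM (SD, n = 3 each). The differences were 1.51 ± 0.23 (SE, limma adjusted p = 0.0195) and -1.76 ± 0.23 (SE, limma adjusted p = 0.0214). It lost its HFD versus ND call on omission of ND replicate 2 or 3 or HFD replicate 1 or 2 (adjusted p 0.0559 to 0.0817). It lost its HFDM versus HFD call with median scaling and on omission of any 1 HFD array or HFDM replicate 1 or 3 (adjusted p 0.0537 to 0.105). Lgals3, the galectin long used to stain macrophages of crown-like structures, rose from 13.61 ± 0.46 to 15.00 ± 0.06, a difference of 1.39 ± 0.23 (SE, limma adjusted p = 0.0253). In HFDM it read 13.99 ± 0.08, where its difference from HFD did not pass (limma adjusted p = 0.0991). Lgals3 lost its call with median scaling and on omission of any 1 HFD array or HFDM replicate 3 (adjusted p 0.0542 to 0.121). Lipa, the lysosomal acid lipase, was called in both contrasts, at 1.15 and -1.26 (limma adjusted p = 0.0258 and 0.0298), and so was the cell fusion gene Dcstamp, at 1.12 and -1.26 (limma adjusted p = 0.0237 and 0.0279). The other called genes of the list, named after their values were seen, were those of the cathepsins Ctsk, at 1.49 in HFD versus ND (limma adjusted p = 0.0458), and Ctss, at -1.49 in HFDM versus HFD (limma adjusted p = 0.0408). Lipa lost its HFD versus ND call with median scaling and on omission of ND replicate 2 or 3, any 1 HFD array or HFDM replicate 3 (adjusted p 0.0584 to 0.126). Lipa lost its HFDM versus HFD call with median scaling and on omission of any 1 HFD array or any 1 HFDM array (adjusted p 0.0812 to 0.155). Dcstamp lost its HFD versus ND call with median scaling and on omission of ND replicate 2 or 3 or any 1 HFD array (adjusted p 0.0506 to 0.121). Dcstamp lost its HFDM versus HFD call with median scaling and on omission of any 1 HFD array or any 1 HFDM array (adjusted p 0.0569 to 0.14). Ctsk lost its call without background correction, with median scaling, without a detection filter and on omission of ND replicate 2 or 3, any 1 HFD array or any 1 HFDM array (adjusted p 0.0574 to 0.19). Ctss lost its call without background correction, with median scaling, without a detection filter and on omission of ND replicate 2 or 3, any 1 HFD array or HFDM replicate 1 or 3 (adjusted p 0.0566 to 0.191). Itgax, Atp6v0d2, Ocstamp, Cd300lf and Npl of this list were detected on none of the 9 arrays.

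General markers of macrophages and monocytes held 0 members among 23 genes with a kept probe. Of these 2 rose in HFD versus ND, the Fc receptor gene Fcgr3 and Ly86, and the list's median difference was 0.69. The 23 differences ran from -0.15 for Cd163 to 2.09 for Tyrobp, which did not pass (limma adjusted p = 0.0714). Cd14 and Csf1r were at -0.03 and 0.19. Fcgr3 rose by 1.40 (limma adjusted p = 0.023) and Ly86 by 1.13 (limma adjusted p = 0.0481), where 1.41% of all kept probes rose. Fcgr3 lost its call with median scaling and on omission of ND replicate 2 or any 1 HFD array (adjusted p 0.054 to 0.11). Ly86 lost its call without background correction, with median scaling, without a detection filter and on omission of any 1 ND array, any 1 HFD array or any 1 HFDM array (adjusted p 0.0518 to 0.206). Adgre1, which encodes the macrophage surface protein F4/80, had means of 10.15 ± 0.02 (ND), 10.96 ± 0.19 (HFD) and 9.89 ± 0.14 (HFDM; SD, n = 3 each). Its HFD versus ND difference of 0.81 did not pass (limma adjusted p = 0.0605), and its HFDM versus HFD difference of -1.07 did (limma adjusted p = 0.0384), the only call of this list in that contrast, named after its values were seen. Adgre1 lost its call without background correction, with median scaling and on omission of ND replicate 3, any 1 HFD array or any 1 HFDM array (adjusted p 0.0515 to 0.178). The summed intensity of the list was 87752 to 111075 on the ND arrays, 136906 to 163701 on the HFD arrays and 88436 to 120279 on the HFDM arrays, so it was highest in HFD, as the members were. Its brightest gene was Lyz1, with means of 15.48, 15.71 and 15.53 in ND, HFD and HFDM. HFD sums above all other arrays were not particular to immune cells. Endothelial and mural markers summed to 24715.6 to 34446.2, 36266.5 to 39797.4 and 30194.6 to 34306 in the same order, with 0 of 12 genes called. The median HFD versus ND difference of these genes was -0.14, so the median gene did not follow the higher HFD sum. The matrix list, described below, summed to 114426 to 167356, 193148 to 207819 and 154442 to 173751. Dendritic cell and MHC class II genes summed to 46672 to 56803, 79778 to 92634 and 43036 to 57613, with 0 members among 11 genes and 1 call in each HFD contrast, H2-DMb1, at 1.34 and -1.24 (limma adjusted p = 0.023 and 0.0445). H2-DMb1 lost its HFD versus ND call on omission of ND replicate 2 or 3 or any 1 HFD array (adjusted p 0.0652 to 0.117). H2-DMb1 lost its HFDM versus HFD call without background correction, with median scaling, without a detection filter and on omission of ND replicate 2 or 3, any 1 HFD array or any 1 HFDM array (adjusted p 0.0544 to 0.213). Markers of T, B and NK cells summed to 6184 to 7354, 8608 to 10277 and 6600 to 7519, with 0 of 9 genes called in any contrast, and Cd4, Cd8a, Gzmb and Klrb1c were detected on no array. Cd8b1, with means of 12.12, 12.64 and 12.19 in ND, HFD and HFDM, and Thy1, with 10.50, 11.16 and 10.68, carried that sum, while the T cell receptor gene Cd3e was at 6.50, 6.27 and 6.20. Adipocyte markers summed to 347485 to 431340 in ND, 359417 to 384740 in HFD and 399399 to 408460 in HFDM, so that every HFD array lay below every HFDM array while ND spanned both. Of the 19 genes 0 were called in any contrast, and the median difference was -0.16 in HFD versus ND and 0.18 in HFDM versus HFD. The part of these cell types in the members' values was not tested.

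Chemokines, cytokines and their receptors gave 4 members, Ccl2, Ccl7, Il1rn and Il7r, among 32 genes. Ccl2, the main monocyte attractant, read 5.91, 5.83 and 7.36 on ND, 8.73, 9.92 and 9.58 on HFD and 6.56, 6.77 and 6.63 on HFDM, which is 8.24-fold and 6.74-fold. Ccl7, whose product shares receptors with that of Ccl2, read 7.88, 7.22 and 8.73 on ND, 10.37, 11.48 and 11.23 on HFD and 8.74, 8.64 and 9.02 on HFDM on its probe with the larger gap, or 8.48-fold and 4.69-fold. Its other member probe was 5.53-fold over ND and 4.10-fold over HFDM. In both genes ND replicate 3 was the highest ND array and HFD replicate 1 the lowest HFD array, and the HFD mice stood clear of the rest. Ccl2 and Ccl7 lie next to each other in the RefSeq order of protein-coding genes, as do Chil3 and Chil4 and, from other families, Cd6 and Slc15a3, while Mmp12 and Mmp3 are 2 places apart. Il1rn, the natural antagonist of the interleukin-1 receptor, read 5.66, 5.76 and 5.31 on ND, 7.75, 8.66 and 7.95 on HFD and 5.39, 6.41 and 5.85 on HFDM, or 5.84-fold and 4.71-fold. Of the other 28 genes of this list 3 rose and 0 fell in HFD versus ND, with a median of 0.69, and 1 fell in HFDM versus HFD, with a median of -0.87. Over all kept probes 1.41% rose and 0.732% fell in these contrasts. The chemokine genes Ccl6, Ccl9 and Cxcl1 rose by 1.29, 1.14 and 2.39 (limma adjusted p = 0.0353, 0.0394 and 0.0152). Ccl6 lost its call with median scaling and on omission of any 1 ND array, any 1 HFD array or HFDM replicate 1 (adjusted p 0.055 to 0.159). Ccl9 lost its call with median scaling and on omission of any 1 ND array, any 1 HFD array or any 1 HFDM array (adjusted p 0.051 to 0.179). Cxcl1 lost its HFD versus ND call on omission of HFD replicate 2 or 3 (adjusted p 0.0502 to 0.0768). Cxcl1, which attracts neutrophils, was also the gene that fell in HFDM versus HFD, with a difference of -1.84 (limma adjusted p = 0.0487), and its probe was among the 21 dropped by the rule. Cxcl1 lost its HFDM versus HFD call without background correction, with median scaling, without a detection filter and on omission of ND replicate 3, any 1 HFD array or any 1 HFDM array (adjusted p 0.068 to 0.23). The cytokine genes Il6, Il10 and Ifng were detected on no array.

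Saa3 was the member of the acute phase and complement list and S100a8 that of the neutrophil and mast cell list, and Ptx3 and Ubd, described with them, were on no list. Saa3, the serum amyloid A gene that mouse fat and macrophages express, read 8.21, 8.0 and 8.74 on ND, 12.35, 13.52 and 12.39 on HFD and 8.94, 8.59 and 9.07 on HFDM, or 21.7-fold and 14.8-fold. Of the other 14 genes of its list, 1 rose in HFD versus ND and 1 fell in HFDM versus HFD, in both cases Lbp, the lipopolysaccharide binding protein, by 1.37 ± 0.19 and by a difference of -1.09 (SE, limma adjusted p = 0.0139 and 0.0408). Lbp lost its HFD versus ND call on omission of HFD replicate 1 or 2 (adjusted p 0.0522 to 0.0767). Lbp lost its HFDM versus HFD call without background correction, with median scaling and on omission of ND replicate 3, any 1 HFD array or any 1 HFDM array (adjusted p 0.0568 to 0.188). S100a8, a subunit of the calcium-binding complex calprotectin of neutrophils and monocytes, read 10.63, 7.60 and 9.23 on ND, 12.46, 13.77 and 12.26 on HFD and 9.96, 9.99 and 10.40 on HFDM, or 12.8-fold and 6.58-fold. Its ND mice spread widely, and the highest of them still lay below the lowest HFD mouse. S100a9, the other calprotectin subunit, was no member and was detected on 3 of the 9 arrays. Its probe read 6.20, 5.08 and 5.33 on ND, 6.32, 6.16 and 4.95 on HFD and 4.83, 5.33 and 5.53 on HFDM, with the diets overlapping, and 0 of the other 8 genes of the neutrophil and mast cell list were called (median 0.04 in HFD versus ND). Ptx3, a long pentraxin of innate immunity, was 4.19-fold and 4.65-fold over ND on its 2 probes and 3.36-fold and 4.94-fold over HFDM. Ubd, a ubiquitin-like modifier induced by inflammatory cytokines, read 8.84, 6.60 and 6.60 on ND, 12.12, 13.34 and 12.39 on HFD and 7.76, 7.85 and 8.0 on HFDM. At 38.7-fold over ND it had the largest fold of the members, and 26.8-fold over HFDM.

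Chil3, Chil4, Arg1 and Ass1 were members that stood on no list. The chitinase-like genes Chil3 and Chil4 were near background outside HFD, Chil3 at least 2.75-fold and at least 3.89-fold over ND on its 2 probes and Chil4 4.42-fold. Their HFD values differed between mice, with 6.72, 8.12 and 6.53 on 1 Chil3 probe and 6.94, 8.26 and 7.68 for Chil4, so HFD replicate 2 was the highest in both. Chil3 and Chil4 are near-identical genes, and probes of such families can bind both transcripts, as may probes of Sirpb1a, Bcl2a1b, Lilrb4a and H2ac12. Arg1, arginase 1, read 4.82, 5.67 and 6.24 on ND, 7.06, 7.79 and 7.94 on HFD and 5.24, 5.70 and 5.19 on HFDM, or 4.06-fold over ND and at least 3.77-fold over HFDM. Ass1, an enzyme of arginine synthesis, was 4.13-fold and 4.64-fold. Further members were Tlr13 at 4.02-fold and 4.68-fold, Cd180 at 3.46-fold and 3.40-fold, Cd84 at 3.33-fold and 3.15-fold, Lilrb4a at 3.51-fold and 3.63-fold, Sirpb1a at 6.78-fold and 9.04-fold, and Lat2 at 3.44-fold and 3.57-fold on its probe with the larger gap. Slc15a3, a lysosomal transporter of histidine and small peptides, read 7.74, 6.07 and 7.33 on ND, 10.04, 10.77 and 10.26 on HFD and 7.63, 8.18 and 7.39 on HFDM, or 9.92-fold and 6.16-fold. Lcp1 and Cd52, an actin-bundling protein and a small surface glycoprotein of leukocytes, were the members of the phagocytosis list, at 2.86-fold and 2.85-fold over ND and 3.34-fold and 2.40-fold over HFDM. Of its other 22 genes 2 rose in HFD versus ND and 2 fell in HFDM versus HFD, with medians of 0.88 and -0.89, where 1.41% of all kept probes rose and 0.732% fell. Those that rose were Fcgr3, described above, and Nckap1l, an actin regulator of blood cells, by 1.24 (limma adjusted p = 0.0289). Nckap1l lost its call with median scaling and on omission of ND replicate 1 or 2, any 1 HFD array or HFDM replicate 3 (adjusted p 0.054 to 0.133). Those that fell, named after their values were seen, were the adaptor gene Lcp2 and the hyaluronan receptor gene Cd44, with differences of -1.47 and -1.53 (limma adjusted p = 0.0419 and 0.0471). Lcp2 lost its call without background correction, with median scaling, without a detection filter and on omission of ND replicate 2, any 1 HFD array or any 1 HFDM array (adjusted p 0.0587 to 0.188). Cd44 lost its call without background correction, with median scaling, without a detection filter and on omission of ND replicate 2 or 3, any 1 HFD array or any 1 HFDM array (adjusted p 0.0579 to 0.214).

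Enzymes and inhibitors of matrix breakdown gave 3 members, Mmp3, Timp1 and Adam8, among 31 genes of the matrix list, beside Mmp12. Timp1, an inhibitor of metalloproteinases, read 8.62, 7.48 and 9.18 on ND, 10.11, 11.40 and 10.64 on HFD and 8.58, 8.74 and 8.64 on HFDM on its probe with the larger gap, or 4.89-fold and 4.18-fold. Mmp3, also called stromelysin, was 4.39-fold over ND and at least 4.19-fold over HFDM, with 7.38, 8.58 and 7.29 on the HFD arrays. Adam8, a membrane protease of leukocytes, was at least 4.62-fold over ND and at least 4.56-fold over HFDM on its probe with the larger gap. Of the other 28 matrix genes 2 rose in HFD versus ND, 1 fell and the median difference was 0.53, and 0 were called in HFDM versus HFD. Tnc and Col4a2, a tenascin and a basement membrane collagen, rose by 1.27 and 1.08 and Mmp9, a gelatinase, changed by -1.54 (limma adjusted p = 0.0146, 0.0439 and 0.0371). Tnc lost its call on omission of any 1 HFD array (adjusted p 0.0524 to 0.063). Col4a2 lost its call without background correction and on omission of ND replicate 1 or 2, any 1 HFD array or any 1 HFDM array (adjusted p 0.0527 to 0.172). Mmp9 lost its call without a detection filter and on omission of any 1 ND array, HFD replicate 2 or 3 or HFDM replicate 3 (adjusted p 0.0552 to 0.166). The link protein gene Hapln3 was 3.18-fold over ND and at least 2.65-fold over HFDM, and the proteoglycan gene Ncan was 6.10-fold and 4.49-fold.

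Genes tied to the expansion of fat gave 4 members among 22, Tph2, Gdf3, Fgf13 and Ccl2. Tph2, the tryptophan hydroxylase that begins serotonin synthesis in neurons, read 7.15, 7.40 and 8.87 on ND, 12.11, 13.88 and 12.65 on HFD and 8.12, 6.81 and 8.30 on HFDM. It was 33.6-fold over ND and 35.0-fold over HFDM, and the ND and HFDM mice overlapped. Gdf3, a ligand of the TGF-beta family, read 5.56, 6.0 and 5.67 on ND, 7.67, 8.64 and 8.14 on HFD and 5.56, 5.97 and 5.51 on HFDM, or 5.31-fold and 5.54-fold. Fgf13, a relative of the fibroblast growth factors that stays in the cell, read 8.98, 9.78 and 10.65 on ND, 12.48, 12.76 and 12.81 on HFD and 10.48, 10.58 and 11.23 on HFDM. It was 7.36-fold over ND and 3.78-fold over HFDM, and the HFDM mice lay in or above the upper part of the ND range. Another probe of Fgf13 was among the 21 dropped by the rule, with 5.19, 5.65 and 5.75 on ND, 8.81, 8.88 and 8.77 on HFD and 5.52, 6.95 and 6.89 on HFDM. Of the other 18 genes of this list 2 rose in HFD versus ND, 0 fell, and 0 were called in HFDM versus HFD. These were Mest, which rises in growing fat cells, by 1.74, and the secreted Wnt inhibitor Sfrp5, by 2.90 (limma adjusted p = 0.027 and 0.0174). Mest lost its call on omission of ND replicate 2 or 3 or any 1 HFD array (adjusted p 0.0551 to 0.121). Sfrp5 lost its call on omission of ND replicate 2 or any 1 HFD array (adjusted p 0.0509 to 0.063). Apoc4, an apolipoprotein gene, was 8.83-fold over ND and 6.42-fold over HFDM, with ND values of 6.43, 4.69 and 7.33.

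Some members are known mainly from other tissues. Pvalb, the calcium buffer of fast muscle and certain neurons, read 6.91, 5.34 and 6.58 on ND, 10.27, 10.71 and 10.56 on HFD and 7.0, 7.18 and 6.43 on HFDM, or 18.9-fold and 12.5-fold. The fast muscle genes Ckm, Myh4 and Tnnt3 were detected on no array, and 0 of the other 6 muscle genes with a kept probe were called in HFD versus ND (median 0.47). The summed muscle list overlapped between diets, at 14009 to 16777 on ND, 12686 to 15261 on HFD and 11580 to 14327 on HFDM. Cox6a2, the heart and muscle form of a cytochrome oxidase subunit, was 5.32-fold and 5.15-fold. Cyp2c70, a bile acid hydroxylase of mouse liver, was at least 5.15-fold over ND and at least 5.09-fold over HFDM, with 4.98, 5.12 and 5.62 on ND, 7.95, 7.95 and 8.19 on HFD and 5.51, 5.09 and 5.67 on HFDM. F7, coagulation factor VII, was at least 5.50-fold over ND and 5.89-fold over HFDM, with 8.15, 8.42 and 7.81 on the HFD arrays. Vsig8 was detected on no array outside HFD and was at least 10.5-fold over ND and at least 10.4-fold over HFDM, with 8.89, 9.42 and 8.86 on the HFD arrays. Ghrh, the gene of growth hormone releasing hormone, was 3.78-fold over ND and at least 3.07-fold over HFDM.

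Atf3 and Fos were the members of the unfolded protein and heat shock list. Atf3, a stress-induced transcription factor, read 6.67, 6.83 and 5.85 on ND, 8.58, 8.99 and 8.79 on HFD and 5.90, 7.20 and 6.40 on HFDM, or 5.04-fold and 4.87-fold. Fos, an immediate early transcription factor, read 8.10, 9.32 and 8.74 on ND, 10.26, 10.42 and 11.07 on HFD and 9.19, 9.45 and 8.58 on HFDM, or 3.63-fold and 2.85-fold, with HFD replicate 3 the highest. Of the other 21 genes of the unfolded protein and heat shock list 2 rose in HFD versus ND, and the median was -0.05. Hmox1, which breaks down haem, rose by 1.68 and the small heat shock gene Hspb1 by 1.19 (limma adjusted p = 0.0289 and 0.0461). Hmox1 lost its call on omission of ND replicate 1 or 2, any 1 HFD array or HFDM replicate 3 (adjusted p 0.0569 to 0.121). Hspb1 lost its call without background correction, with median scaling, without a detection filter and on omission of ND replicate 1 or 2, any 1 HFD array or any 1 HFDM array (adjusted p 0.0561 to 0.19). Spc25 and Gtse1, which act in mitosis, were 6.44-fold and 4.80-fold over ND, while the cell division list held 0 members among 20 genes and 0 calls, with a median of 0.64. Nup210, a nuclear pore protein, was 6.88-fold over ND and 7.26-fold over HFDM, and Gadd45b was 3.79-fold and 2.98-fold. Genes of mannose use and N-glycan building held 0 members among 40, and 0 were called in any contrast, with a median HFD versus ND difference of 0.03. The interferon response list held 0 members among 16 and 1 call in each HFD contrast, Irf8, a transcription factor of the myeloid lineage, at 8.03 ± 0.23 in ND, 9.27 ± 0.18 in HFD and 7.61 ± 0.18 in HFDM (SD, n = 3 each, limma adjusted p = 0.0224 and 0.0136). Irf8 lost its HFD versus ND call on omission of ND replicate 2 or 3 or any 1 HFD array (adjusted p 0.0592 to 0.114). Irf8 lost its HFDM versus HFD call on omission of HFD replicate 2 or 3 or HFDM replicate 1 or 3 (adjusted p 0.0537 to 0.0894). Fatty acid synthesis and oxidation lists also held 0 members among 21 genes each, with medians of -0.88 and -0.40 in HFD versus ND and 2 and 0 genes that fell. Those were the desaturase gene Fads1 and Acacb, an acetyl-CoA carboxylase, with differences of -1.36 and -1.46 (limma adjusted p = 0.0105 and 0.0372). Fads1 lost its call on omission of HFD replicate 2 (adjusted p 0.063). Acacb lost its call with median scaling, without a detection filter and on omission of any 1 ND array, any 1 HFD array or HFDM replicate 2 (adjusted p 0.0525 to 0.132). In all, 24 of the 75 member genes were on a list and 51 were on none.

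The other members are given by their folds. Car12, a membrane carbonic anhydrase, and Tfr2, a transferrin receptor that senses iron, were 6.19-fold and 5.99-fold over ND and 5.31-fold and 5.36-fold over HFDM, each with its highest value on HFD replicate 2. Lctl was 5.39-fold and 4.47-fold, C730029A08Rik 4.80-fold and 3.88-fold, H2-M2, a non-classical MHC class I gene, 4.52-fold and 5.85-fold, and Bpifb6 4.01-fold and 3.27-fold. Dnmt3l, a cofactor of DNA methyltransferases, was 6.28-fold and 4.04-fold, with 7.13, 6.14 and 8.83 on ND and 9.39, 10.31 and 10.36 on HFD. Of the rest, Hk3, a hexokinase, was 3.11-fold over ND, Myo1f, a myosin, 2.71-fold, Evl 3.25-fold, Matk, a kinase, 3.52-fold, Stap1, an adaptor, 2.90-fold, Ms4a6d 2.96-fold and the T cell surface gene Cd6 3.95-fold. Acoxl was at least 3.65-fold over ND and at least 3.60-fold over HFDM. Calhm6, B430212C06Rik, Shroom2, Glipr1, Fam83f, Adssl1, Jpt2, Bcl2a1b, Tnfaip2 and H2ac12 lay between 2.68-fold and 3.99-fold over ND. The 7 unnamed probes ranged from at least 1.99-fold to 6.80-fold over ND and from at least 1.97-fold to 4.22-fold over HFDM.

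Most members were highest on the same HFD mouse. HFD replicate 2 was the highest HFD array in 72 members (76.6%, against 35.6% of all kept probes), replicate 3 in 18 (19.1%, against 29.5%) and replicate 1 in 4 (4.26%, against 34.9%). The value of replicate 2 exceeded the mean of the other HFD mice by a median of 0.54 in the members and of 0.02 over all kept probes. Among the members described above, Pvalb, Saa3, Trem2 and Tph2 were highest on replicate 2, Mmp12 and Fos on replicate 3. Within ND, HFD and HFDM the members had median SDs of 0.49, 0.39 and 0.30, and all kept probes 0.35, 0.24 and 0.26.

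Probes that the rule did not pick gave a further reading of the same genes, from the same RNA. For 34 of the 75 genes the arrays held 52 other probes, of which 17 were detected on no array. On all 3 HFD arrays 21 of them were detected, and these all read higher on each HFD array than on each of the other 6, but detection in HFD had selected them, so nothing is read from that count. Of the 14 detected on some array but not on all HFD arrays 1 did so, a probe of Chil3, and of the 17 detected nowhere 1 did. Over all 52 the share was 44.2%, against 4.36% of all probes on the array. Of the 23 probes behind that share, 21 were those detected on all HFD arrays, so nothing is read from the share either. A Ct55 probe and a Fgf13 probe among them had passed the gap and were dropped by the rule for their HFDM values. The median difference over all 52 was 0.65 from ND and 0.58 from HFDM. Probes of Cd84 and Fgf13 that were detected on 5 and 4 arrays, though not on all HFD arrays, were not above all 6. Another probe of Cd52 read 8.87, 7.68 and 7.71 on ND, 9.61, 9.33 and 9.67 on HFD and 7.83, 8.91 and 8.17 on HFDM. A further probe of Tnfaip2, a gene induced by tumour necrosis factor, read 8.20, 7.91 and 8.60 on ND, 9.91, 10.51 and 9.76 on HFD and 8.47, 8.95 and 8.40 on HFDM. A Dnmt3l probe outside the rule had the wide ND spread of the member probe, at 7.27, 6.37 and 9.26, below HFD values of 9.50, 10.69 and 10.53.

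The rule was also applied with each array left out, and the array that had not been used was then read. Without an ND array it chose 88, 104 and 83 probes, and on the unused ND replicates 1, 2 and 3 the lowest used HFD value exceeded that array's value in 98.9%, 98.1% and 100% of them. Over all probes detected on the HFD arrays this held for 26.6%, 32.0% and 23.3%. After normalization the shares were 98.9%, 100% and 100%, against 38.5%, 42.0% and 30.5%. For the HFDM replicates 97.2% of 107, 100% of 88 and 96.9% of 98 chosen probes kept the order, against 13.3%, 21.6% and 15.9% of all, and after normalization 98.1%, 100% and 96.9%, against 53.0%, 28.7% and 35.9%. For HFD replicates 1 and 2 it was 99.1% of 111 and 99.0% of 99, against 27.7% and 31.8%, and after normalization 96.4% and 99.0%, against 21.0% and 23.5%. HFD replicate 3 was the exception before normalization, since 233 of the 274 probes chosen without it, 85.0%, had their value there above all 6 other arrays, against 5.69% of all probes. After normalization that share was 96.4%, against 18.3%. The 9 choices share 8 of their arrays with the full rule, so they are not independent of each other. Members made up 76, 92 and 80 of the probes chosen without ND replicate 1, 2 or 3. Without HFDM replicate 1, 2 or 3 they made up 92, 84 and 89, and all 94 were chosen without any 1 HFD array. The chosen probes had also passed the gap on the arrays used, unlike all the probes they are set beside, so nothing is read from these shares.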

How the data were processed

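Total RNA of epididymal fat from 9 mice was measured on single-colour Illumina bead arrays. GenomeStudio is the only tool the submitters' processing notes name, and its version is not stated there. Per the file headers, the deposited table gives every probe's intensity with its detection p-value, array by array. On each array 27.3% to 33.2% of the intensities the authors deposited were negative, so background had been subtracted. A table of the authors' normalized intensities, method and scale unstated, had array medians of 155.382 to 155.424 and the same rank order within each array, and served as an alternative.

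Members were chosen on log2(intensity floored at 0, plus 16), with no normalization between arrays. The members and gene lists were chosen with earlier results of these data known. For levels and fits, intensities were processed with neqc in limma 3.58.1 (R 4.3.3), with an offset of 16. The 20772 probes with a detection p-value under 0.05 on at least 3 arrays were kept. The model held 1 mean for each diet over the 9 arrays, with Benjamini-Hochberg adjustment over all kept probes. The fits were tested on simulated data. The design text names 3 mice per diet, and the number of arrays limits the precision.

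Gene names came from the platform annotation, which gave 1 symbol for 34885 probes, several for 18 and none for 10378, and 34807 of the named probes had an Entrez identifier in RefSeq. Each list used 1 probe per gene. Genes first chosen to be named were the 30 members with the largest gap, members on a list, those next to the threshold, and called genes of the lists. The remaining members were named with their folds, and some uncalled genes of the lists with their levels or differences. Diets were taken from the sample titles, and 0 columns were left without a sample. Alternatives were other normalizations, thresholds and filters, the replicate block, and the omission of each array. The replicate block was not used for the lost calls of single named genes.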

Additional observations from a re-analysis of the deposited data

How the results depend on the processing

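The 94 members depended on the scale. On quantile-normalized values and on neqc values the rule chose 165 probes in each case, 88 of the members among them, and on median-scaled or the authors' normalized values 123 and 80, with 80 and 53 of the members. A gap of 0.5 gave 144 and a gap of 1 gave 54. Without an array the rule chose 83 to 274 probes, the highest without HFD replicate 3. HFD versus ND had 373 called probes, 243 with median scaling, 677 with detection under 0.01 on all 3 arrays of a diet, 560 with a variance trend and robust fit, and 44 to 313 with 1 array left out. HFDM versus HFD had 163, and 76 without background correction, 71 with median scaling, 106 without a detection filter, 378 with the stricter detection, 267 with the robust fit, and 13 to 228 with 1 array left out. HFDM versus ND had 0 in each setting, except 2 without ND replicate 1, so 0 to 2 with 1 array left out. The cause of these shifts was not tested, and fits with 1 array left out also had fewer mice. Of 2216 differences of single named probes between HFD and the other diets, 0 changed sign, which the rule fixes for the members. In HFDM versus ND, where the differences were small, 76 to 94 of the 94 members had the direction of the main fit, 88 with median scaling and 77 and 76 without ND replicate 2 or 3. Every gene named outside the set and called in HFD versus ND lost that call without HFD replicate 2. Signal over background limits the 12 members that were dim on all ND arrays and the 18 that were dim on all HFDM arrays, whose folds are minima.

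Same-numbered mice of different diets correlated between -0.516 and 0.459 in their deviations from the diet means. Mice with different numbers correlated between -0.698 and 0.650. With 3 arrays per diet these values cannot show whether same-numbered arrays shared a slide or day. With the replicate number as a block, 92 probes were called in HFD versus ND (40 members), 32 in HFDM versus HFD (23 members) and 0 in HFDM versus ND.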
